A study of Caenorhabditis elegans with 4 samples.

Results

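The regions described here are the binding sites called on chromosome V for F23F12.9 (zip-8), a transcription factor of the basic leucine zipper (bZIP) class, in Caenorhabditis elegans embryos. They are the rows of the combined peak list that lie on chromosome V: 433 of 2237 peaks, chosen by chromosome alone and by no measured value. Strain OP327 carries the transgene wgIs102, in which F23F12.9 is fused to TY1, EGFP and FLAG tags together with an unc119 rescue marker. The labels write the background allele both as unc327(ed3) and as unc-119(ed3), and say that the transgene was introduced by bombardment and that the strain was not outcrossed. All 4 samples share this genotype: 2 ChIP samples (replicates 1 and 2), precipitated with an anti-GFP antibody, and 2 input samples of total DNA, which have no peak list of their own here. Embryos from mixed populations of males and hermaphrodites grown at 20 °C were fixed with 2% formaldehyde. Whole embryos were used, so sites from all their cell types are pooled.

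Proteins of the bZIP class bind DNA as dimers: the leucine zipper joins the partners and the basic region beside it contacts the DNA. ChIP-seq finds such contacts as peaks, places where precipitated fragments pile up. Chromosome V is the longest worm chromosome. Worm autosomes have centres of low recombination that are rich in conserved genes, and arms of higher recombination with more repeats, and the arms of V hold many members of the large chemoreceptor families. Coordinates below are on WormBase build WS220, 1-based, per the file headers. The genes at these positions and the DNA sequence under the peaks are not given here, because no WS220 annotation or sequence was used.

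The lists compared were the combined one and 1 for each ChIP sample. Replicate 1 placed 3967 of its 20879 nuclear peaks on V and replicate 2 placed 2522 of 13776. The lists give no read counts, so depth is unknown. Each replicate list is 1 library, so intervals below cover counting error only, and tests take peaks or bins, not samples, as their units. The combined list was made from the same experiment as the replicate lists and is not independent of them. In it every peak has the same score, and the number in the peak name was used as the order. Across V peaks this number had a Spearman rho with the deposited score of −0.99 in each replicate list. However, 891 V peaks of replicate 1 (22.5%) and 437 of replicate 2 (17.3%) were tied at the highest score of their list. The score gives no order among tied peaks, so this rho cannot check the number there.

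Chromosome V was sparsely covered in both replicates. Replicate 1 had 190 peaks per Mb on V and replicate 2 had 121, the lowest density of the 6 chromosomes in each list. The next lowest was chromosome IV, with 200.3 and 128 peaks per Mb. Taken as ending with the last peak called in any list, at 20920400, V makes up 20.9% of the nuclear span and was due that share of peaks. It held 19.0% of replicate 1 peaks (95% Wilson interval 18.5 to 19.5%), a ratio to expectation of 0.91 (adjusted p = 1.1e-10 by a two-sided exact binomial test, with adjustment over 6 chromosomes). It held 18.3% of replicate 2 peaks (interval 17.7 to 19%), a ratio of 0.88 (adjusted p = 1.8e-13 by the exact binomial test). In these lists 66.7% and 83.3% of the chromosomes passed the same test, some with more and some with fewer peaks than expected. When the spread was estimated from counts in 1 Mb bins, which allows for clustered peaks, V still passed in both lists (quasi-Poisson fit over n = 103 bins, adjusted p = 0.00069 and 0.0021). The intervals of V and IV overlapped in each list: the ratios ran from 0.885 to 0.936 on V and from 0.933 to 0.991 on IV in replicate 1, and from 0.847 to 0.909 and 0.895 to 0.966 in replicate 2.

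The combined list showed the same direction on V without passing the test. Its 433 peaks made up 19.4% of the list (interval 17.8 to 21%), a ratio of 0.93 (adjusted p = 0.083 by the exact binomial test), where 66.7% of chromosomes passed. The density was 20.7 peaks per Mb, above that of X (19), IV (20) and II (20.4). With as many of the first peaks of a replicate in place of the combined list, V held 388 in replicate 2, a ratio of 0.83 that passed (exact binomial test, adjusted p = 9.3e-05), and 447 in replicate 1, a ratio of 0.96 that did not (adjusted p = 0.31). Overlapping intervals joined, the 433 peaks formed 427 distinct regions that covered 170 kb, 0.813% of the chromosome's span. Peaks covered 7.03% of it in replicate 1 and 6.62% in replicate 2.

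**Figure D1:**
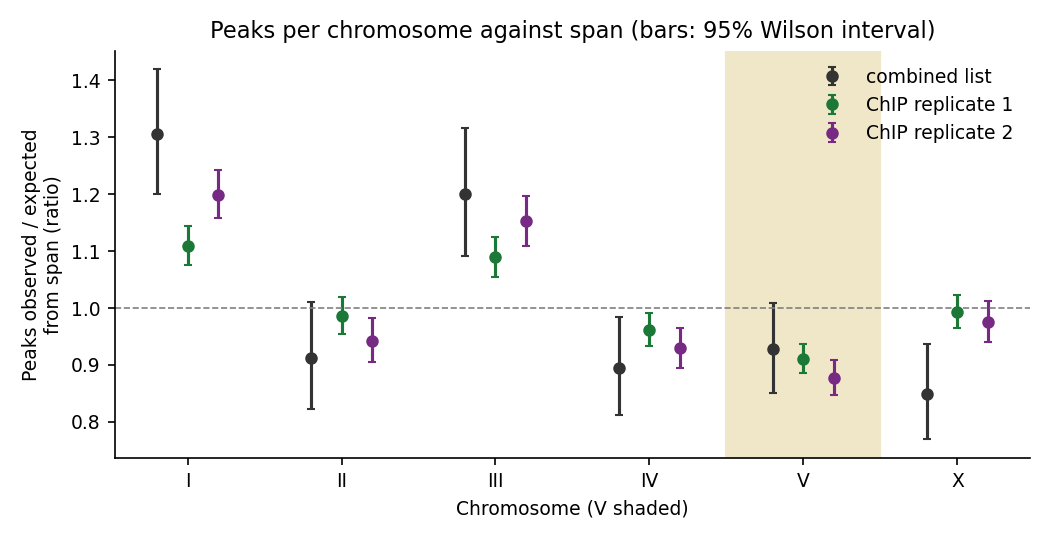
Ratio of observed to expected peaks (y axis) for each nuclear chromosome (x axis) in the combined list and both ChIP replicates, with bars for the 95% Wilson interval and a dashed line at the expected number. On chromosome V all ratios lie below 1 (0.93, 0.91 and 0.88), and the interval of the combined list includes 1.

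Combined sites were spread evenly over the arms and the centre of V. No border of the arms on this build was used, so the span was cut into equal sections at 6.97 and 13.9 Mb. The left arm section held 143 peaks, the centre 145 and the right arm section 145, or 20.5, 20.8 and 20.8 peaks per Mb. Each section is due 33.3%, and the shares were 33% (interval 28.8 to 37.6%), 33.5% (interval 29.2 to 38.1%) and again 33.5% with the same interval. None passed the test against its expected share (exact binomial test, adjusted p = 1 for each, over 18 sections of the 6 chromosomes, of which 11.1% passed). By comparison, the corresponding shares on chromosome IV were 39.5% on the left, 24.4% in the centre and 36.1% on the right.

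Replicate 2 also had similar counts along V, with 822, 847 and 853 peaks from left to right. In replicate 1 the counts were 1332, 1242 and 1393. Here the centre held 31.3% (interval 29.9 to 32.8%; exact binomial test, adjusted p = 0.020) and the right arm 35.1% (interval 33.6 to 36.6%; adjusted p = 0.040), where 50% of all sections passed. With the spread taken from 0.5 Mb bins neither section passed (quasi-Poisson fit over n = 203 bins, adjusted p = 0.12 and 0.15). The corresponding adjusted p in replicate 2 was at least 0.57, with 38.9% of sections passing. The share of replicate peaks that reached the combined list was also alike along V. Of replicate 1 peaks, 12.1% of those in the left arm, 12.2% in the centre and 11.5% in the right arm overlapped a combined peak. Over all of V this was 473 of 3967, or 11.9% (interval 11 to 13%), against 11.5% over the nuclear list. For replicate 2 it was 440 of 2522, or 17.4% (interval 16 to 19%), against 16.7%.

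In bins of 1 Mb the number of sites varied less along V than over the pooled bins of the other chromosomes. The 20 whole bins of V held from 15 to 35 combined peaks, with a median of 19. Over the 77 whole bins of the other 5 chromosomes the range was 9 to 55 and the median 22. The variance of the counts was 1.35 times their mean on V, and 2.54 times over the other chromosomes, a value that includes their differences in density. Taken singly, II had a ratio of 0.73, III of 1.33, IV of 2.04, X of 2.27 and I of 3.16. These ratios are descriptions and were not tested against each other.

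The fullest stretch of V lay near its right end. The bin from 19 to 20 Mb held 35 combined peaks, 265 replicate 1 peaks and 159 replicate 2 peaks, the highest count on V in each of the 3 lists. Of its 35 combined peaks, 31 overlapped a replicate 2 peak and 8 were among the first 560 of the list. The next fullest whole bins were 4 to 5 Mb with 27 combined peaks (219 in replicate 1 and 145 in replicate 2) and 11 to 12 Mb with 26 (181 and 147). In the latter, 25 of the 26 had a replicate 2 partner. The shorter last bin, from 20 Mb to the end of the span, held 24 peaks.

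The emptiest whole bins, tied at 15 combined peaks, were 3 to 4, 8 to 9, 16 to 17 and 17 to 18 Mb. The last of these had 77 replicate 2 peaks, the fewest of any whole bin on V, and 153 in replicate 1, where only the bin from 2 to 3 Mb had fewer, with 151. It lies 1 Mb from the fullest bin, so the lowest and the highest replicate 2 counts of whole bins on V fell within 3 Mb. It also holds the first peak of the chromosome. Counts and order did not always go together: the bin from 12 to 13 Mb held 22 combined peaks, yet none of them was among the first 560 of the list, and its first was number 622. The first bin, from the left end to 1 Mb, had 204 replicate 1 peaks but 16 combined ones, so 7.84% of the replicate 1 count, the lowest ratio on V, against 14.4% in the bin from 11 to 12 Mb. Across the 20 whole bins the combined count had a Spearman rho of 0.60 with replicate 1 and 0.70 with replicate 2, and the replicates one of 0.58 with each other. These lists share libraries, and bins share gene and repeat content, so the values are descriptions.

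**Figure D2:**
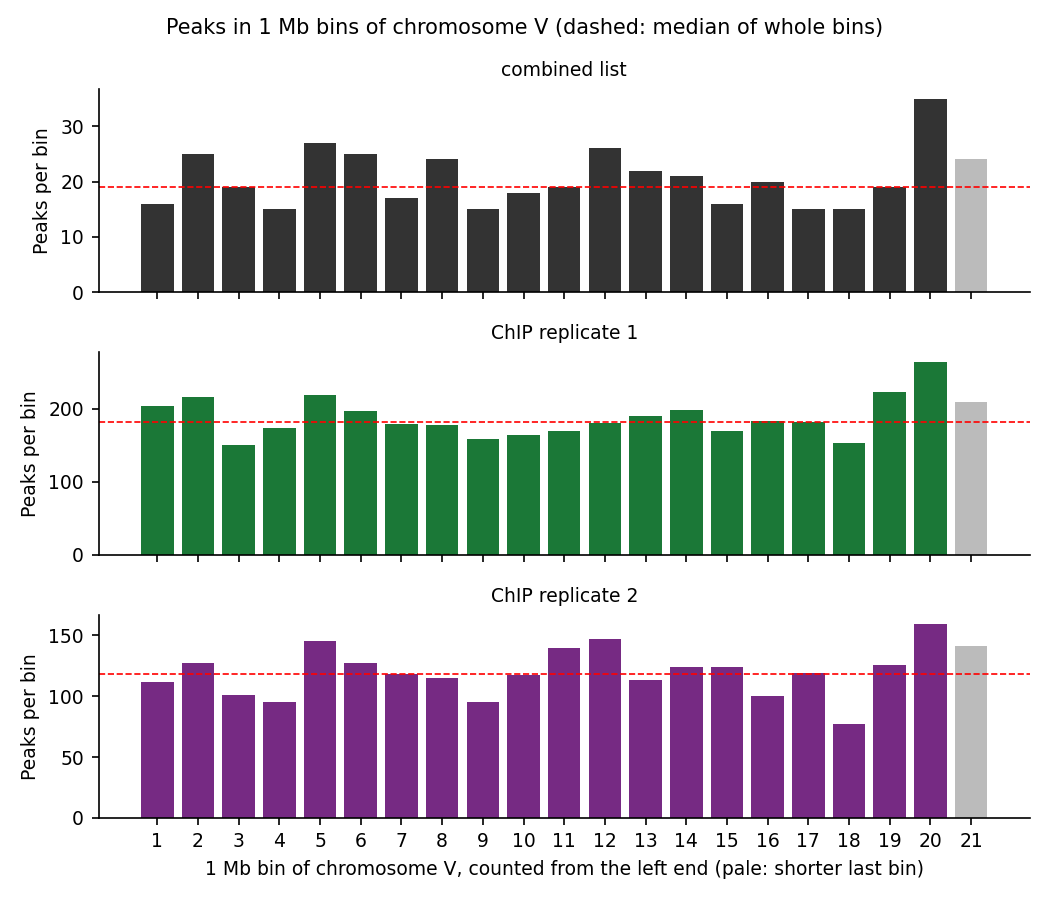
Number of peaks (y axis) in each 1 Mb bin of chromosome V, counted from its left end (x axis), in the combined list, ChIP replicate 1 and ChIP replicate 2. The dashed line is the median of the 20 whole bins and the pale bar is the shorter last bin. The twentieth bar is the highest of each panel, with 35, 265 and 159 peaks.

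Between neighbouring distinct regions of V the gap had a median of 33466 bp, with quartiles of 11014 and 65232 bp, and it ranged from 40 to 281308 bp. On the other chromosomes together the median was 27157 bp, and by chromosome it ran from 21363 bp on I to 36172 bp on X. The longest gaps of V lay at 7876446 to 8157753 (281 kb), 15771495 to 16040376 (269 kb) and 17220899 to 17479301 (258 kb). None of these was empty in the replicates. They held 38, 41 and 34 replicate 1 peaks and 19, 23 and 16 replicate 2 peaks. Per Mb this was 135, 152 and 132 in replicate 1, against 190 over V, and 67.5, 85.5 and 61.9 in replicate 2, against 121. The values over V include replicate peaks that overlap a combined peak (11.9% in replicate 1 and 17.4% in replicate 2). A gap holds none of these by definition, so part of its lower density was fixed in advance. Gaps over 200 kb numbered 10 of 426 on V (2.35%) and 27 of 1771 elsewhere (1.52%). By chromosome there were 8 of 331 on X, 7 of 344 on IV, 6 of 308 on II, 4 of 357 on III and 2 of 431 on I. Of the 10 on V, 3 were in the left arm, 3 in the centre and 4 in the right arm.

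The share of sites with a close neighbour did not differ between V and elsewhere by an amount that passed the test. Of its 427 regions, 109 had another within 5 kb, which is 25.5% (interval 21.6 to 29.9%), against 28.1% over all regions and 28.7% on the other chromosomes. The difference of −3.19 percentage points (interval −7.65 to 1.61) did not pass (two-sided Fisher's exact test, adjusted p = 0.23 over 5 comparisons of V with the rest). The size of this difference depended on the distance: within 2 kb the shares were 13.3% on V and 13.5% elsewhere, and within 10 kb they were 40.0% and 45.7% (Fisher's exact test, adjusted p = 1 and 0.089). Both regions of a near pair count, so they are not independent. By chromosome the share within 5 kb was 24.4% on X, 25.8% on IV and 25.9% on II, against 31.8% on III and 33.8% on I. Runs of regions with steps of up to 5 kb numbered 49 on V. Of these, 40 were pairs and 9 had 3 or more regions.

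The longest run held 5 regions within 8402 bp in the left arm, at 1573231 to 1581632. Its combined numbers went from 305 to 1397, and 4 of its 5 peaks overlapped replicate 2. The tightest run of 3 spanned 3592 bp in the centre, at 11949603 to 11953194, with numbers from 472 to 1887 and all 3 supported by replicate 2. Another run of 3, at 18159539 to 18163750 in the right arm, joined one of the first peaks of V (number 80) with peaks as late as number 1926. In each of these runs the lowest and highest numbers lay far apart, but this did not hold for every pair of neighbours. From left to right the longest run held numbers 979, 1393, 305, 340 and 1397. Its neighbours 305 and 340 were thus close in the order.

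**Figure D3:**
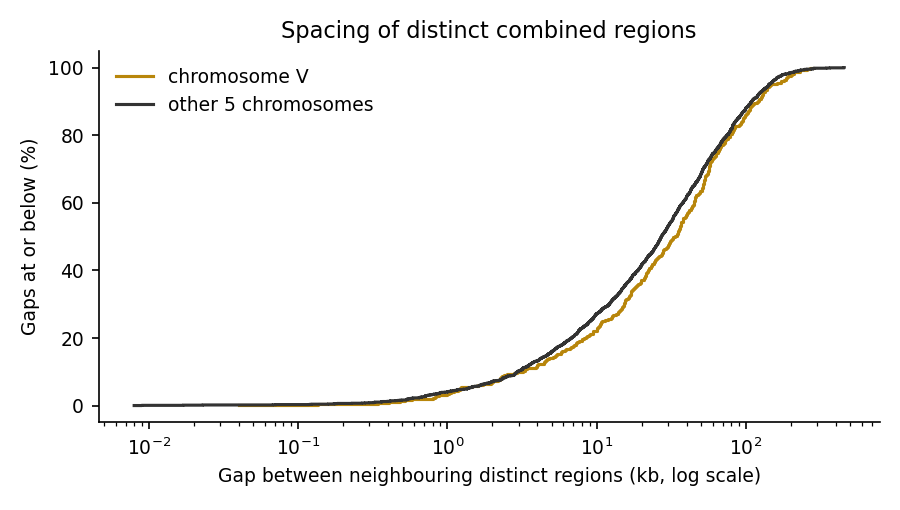
Cumulative share of gaps (y axis, %) by gap length (x axis, kb, log scale) between neighbouring distinct combined regions on chromosome V and on the other 5 chromosomes. Over the middle of the range the V line runs to the right of the other, with medians of 33466 and 27157 bp.

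The first peaks of V, by number, stood early in both replicates with few exceptions. The first, at 17845628 to 17845976 (349 bp), was number 4 of the combined list, 5 in replicate 1 and 6 in replicate 2. Second on V came the site at 19421142 to 19421465, number 24 when combined, 27 in replicate 1 and 51 in replicate 2. The left arm's first site, at 1244013 to 1244358, was entered as number 28, and here replicate 2 placed it higher (15) than replicate 1 (43). Number 32, at 19174636 to 19174974, was number 23 in replicate 1 and 119 in replicate 2. Number 36, at 5949766 to 5950104, was 32 and 121 there, and number 41, at 18993026 to 18993340, was 47 and 112. In all 3 replicate 1 gave the higher place. These sites lay in the left and right arm sections, with number 36 the closest to a border between sections.

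Of the remaining 4 of the first 10, only one stood earlier in replicate 2. Number 48, at 5023348 to 5023736, was 61 in replicate 1 and 45 in replicate 2. Number 53, at 3896058 to 3896371, was 31 and 987, and number 74, at 18536040 to 18536343, was 66 and 277. The last, number 80 at 18163449 to 18163750, was number 41 in replicate 1 but 13558 in replicate 2, so its only partner there stood near the end of that list of 13801 peaks. None of the first 10 lay in the centre, where number 113, at 11656505 to 11656781, came first (213 in replicate 1 and 39 in replicate 2). Of the first 10, 6 lay in the right arm and 4 in the left.

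The share of sites that stood early in the order was lower on V than on the other chromosomes pooled, by a difference that did not pass. Among the first 25% of the combined list, the first 560 peaks, 91 lay on V. That is 21% of its peaks (interval 17.4 to 25.1%), where 25% of all peaks and 26% of those on the other chromosomes (469 of 1804; interval 24 to 28.1%) were in this group. The difference was −4.98 percentage points (interval −9.11 to −0.447; Fisher's exact test, adjusted p = 0.18). This interval leaves out 0 but, unlike the p, is not adjusted for the 5 comparisons. A low share was not particular to V: it was 20.6% on II, 21.7% on X and 24.1% on IV, against 30.1% on I and 31.4% on III. In the replicate lists taken whole, the first 25% held 22.9% of V peaks in replicate 2 against 25.5% elsewhere (Fisher's exact test, adjusted p = 0.038), and 25.6% in replicate 1 against 24.9% (adjusted p = 0.35), so the 2 replicates differed in direction. Among the first 50 combined peaks V had 7, among the first 100 it had 13 and among the first 500 it had 83. The median combined number was 1166 on V and 1108.5 elsewhere, where it ran by chromosome from 997 on III to 1246.5 on X. By section, 25 of 143 peaks of the left arm (17.5%; interval 12.1 to 24.5%), 31 of 145 of the centre (21.4%; interval 15.5 to 28.7%) and 35 of 145 of the right arm (24.1%; interval 17.9 to 31.7%) were among the first 560. These intervals overlap.

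**Figure D4:**
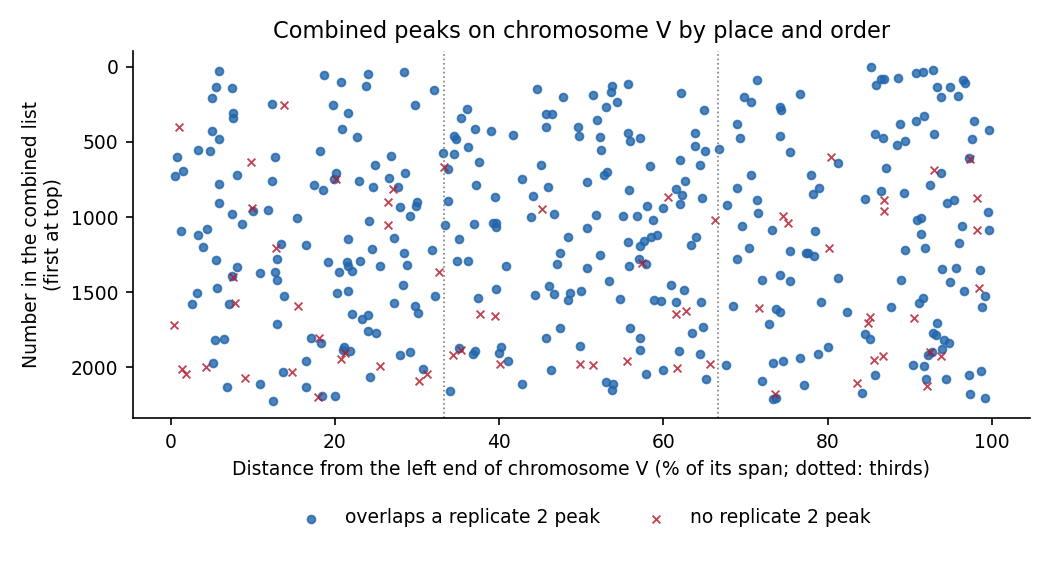
Number in the combined list (y axis, lowest at the top) of each of the 433 peaks against its distance from the left end of chromosome V (x axis, % of the span), with dotted lines between the sections. Circles overlap a replicate 2 peak (368) and crosses do not (65). The points above number 100 lie in the outer 2 of these equal sections.

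Nearly all sites on V were found in replicate 1. Of 433, 432 overlapped a replicate 1 peak, or 99.8%, against 99.9% over the list. The exception, at 12111368 to 12111847 in the centre, was combined number 1315 and number 158 in replicate 2. Replicate 2 held 368, or 85% (interval 81.3 to 88%), against 87.3% over the list and 87.8% on the other chromosomes (1584 of 1804). The difference of −2.82 percentage points (interval −6.76 to 0.629) did not pass (Fisher's exact test, adjusted p = 0.21). With a reciprocal overlap of 50% required, the share in replicate 2 was 60.05% on V (260 of 433) and 59.6% elsewhere, so the direction turned (Fisher's exact test, adjusted p = 0.91). This setting depends on peak width: 99.5% of replicate 2 peaks on V were 600 bp wide. A combined peak narrower than 50% of that width could not pass with them, wherever it lay. With an overlap of 1 bp, both replicates held 367, or 84.8%, against 87.1% over the list and 87.7% elsewhere (difference −2.94 points, interval −6.9 to 0.532; Fisher's exact test, adjusted p = 0.21). The share in replicate 2 ran from 85% on V and 85.4% on IV to 89.6% on X, and the intervals of all 6 chromosomes overlapped.

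Along V the support in replicate 2 was 117 of 143 in the left arm (81.8%; interval 74.7 to 87.3%), 128 of 145 in the centre (88.3%; interval 82 to 92.5%) and 123 of 145 in the right arm (84.8%; interval 78.1 to 89.8%). Among sites with a replicate 2 partner, those of the left arm also stood later in its order. Their median number was 1496, against 1182.5 in the centre and 1227 in the right arm. Such medians differed between sections elsewhere too, at 1333.5, 768 and 1162 on X. In replicate 1 the medians on V were 1191, 1185.5 and 1208, over sites with a partner there. Support was not tested between sections, whose intervals overlap.

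Of the 65 sites on V without a replicate 2 partner, 2 were among the first 560 of the list. The first was combined number 254, at 2893907 to 2894147 in the left arm, which was number 193 in replicate 1. It was followed by number 398 at 222140 to 222295 (replicate 1 number 273), 601 at 16821235 to 16821714 (420), 612 at 20371271 to 20371750 (400) and 632 at 2057201 to 2057353 (508). The combined order was cut into 4 groups of equal size. From first to last, the share of V peaks with a replicate 2 partner was 97.8% (89 of 91), 83.8% (98 of 117), 87.2% (102 of 117) and 73.1% (79 of 108). On the other chromosomes it was 99.4%, 92.8%, 83.7% and 74.9%, lower at each step, whereas on V the second group lay below the third. V and the others lay farthest apart in the second group, where the interval was 76 to 89.4% on V and 90 to 94.8% elsewhere. By chromosome the share elsewhere in this group ran from 89.4% on II to 97.5% on X. Only on X did the interval (91.2 to 99.3%) lie wholly above that of V. The contrast with the pooled others was picked out after its values were seen and was not tested.

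**Figure D5:**
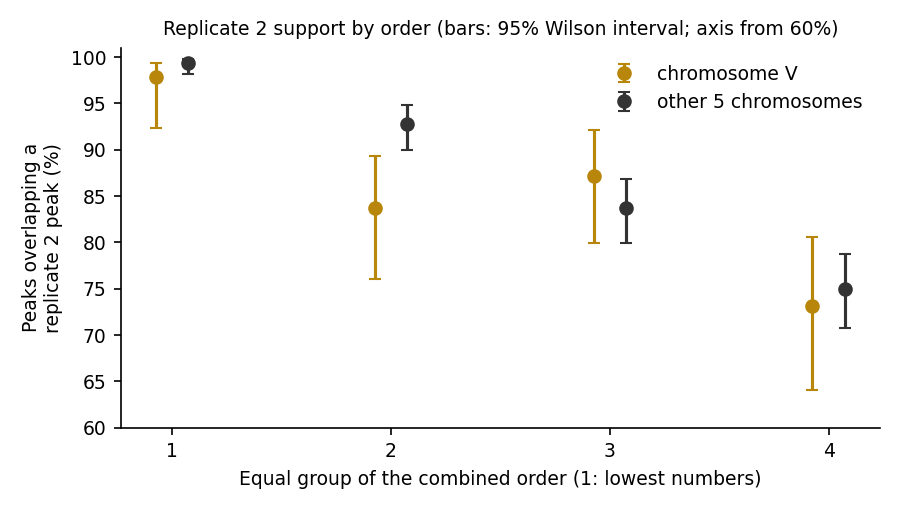
Share of combined peaks that overlap a replicate 2 peak (y axis, %, from 60%) by group of the combined order (x axis, 4 groups of equal size) on chromosome V and on the other 5 chromosomes, with bars for the 95% Wilson interval. In the second group V stands at 83.8% and the others at 92.8%, and in the last at 73.1% and 74.9%.

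Where a partner existed, it usually lay at the same place. From the midpoint of a combined peak on V to that of its replicate 1 partner the median distance was 8 bp, and to its replicate 2 partner 17 bp, against 8 and 19 bp elsewhere. Within 100 bp lay 414 of 432 replicate 1 partners (95.8%) and 325 of 368 replicate 2 partners (88.3%), against 97.3% and 87.4% elsewhere. The combined order on V followed replicate 1 more closely (Spearman rho 0.87 over 432 peaks) than replicate 2 (0.53 over 368), and the values elsewhere were 0.88 and 0.56. These are descriptions, since the combined list shares its libraries with both. Among the first 2237 peaks of replicate 1 were partners of 386 V peaks (89.1%), and among those of replicate 2 partners of 250 (57.7%; interval 53 to 62.3%), against 88.1% and 61.7% elsewhere.

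Most of the replicate peaks on V stayed outside the combined list: 3494 in replicate 1 and 2082 in replicate 2. All 301 V peaks of replicate 1 with numbers below 1604 overlapped a combined peak. Number 1604, at 4209351 to 4209734, was the first that did not, and it had no partner in replicate 2. In replicate 2 the first 95 on V did so, up to number 595 at 11782725 to 11783324, which had no partner in replicate 1. Of the peaks outside the combined list, 587 of replicate 1 and 594 of replicate 2 did overlap the other replicate. Over all of V, 988 of 3967 replicate 1 peaks (24.9%; interval 23.6 to 26.3%) overlapped replicate 2, against 26.1% of the nuclear list. Of replicate 2 peaks 1026 of 2522 (40.7%; interval 38.8 to 42.6%) overlapped replicate 1, against 41.6%.

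Sites on V had the common width or were narrower. Of 433 peaks, 298 were 480 bp wide, or 68.8% (interval 64.3 to 73%), against 66.3% over the list and 65.7% on the other chromosomes. The difference of 3.08 percentage points (interval −1.92 to 7.81) did not pass (Fisher's exact test, adjusted p = 0.23). By chromosome the share was 69.9% on X, 70.1% on II and 70.8% on IV, against 60.1% on I and 60.2% on III. The other 135 V peaks were narrower, down to 120 bp at 10125594 to 10125713 (combined number 1550), and none was wider. IV and X had no wider peak either. The 8 wider peaks elsewhere, up to 2731 bp, lay on I (4), III (3) and II (1). Width went with order. In the first of the 4 groups 6 of 91 V peaks had the common width and the median was 240 bp, in the second 75 of 117, in the third 109 of 117 and in the last all 108. The other chromosomes had the same pattern, with 5.12%, 65.2%, 96.2% and 99.6% of peaks at the common width and a median of 248 bp in the first group. Peaks of 1 place were at times entered more than once: 5 regions of V joined overlapping intervals, the widest of them 3 intervals over 782 bp at 15770713 to 15771494, beside the second longest gap.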

How the data were processed

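The authors deposited peak lists in GFF3 format, called with SPP and passed through IDR per the file headers and source columns, on WormBase WS220. Software versions, thresholds, filters, any pooling of reads and the role of the inputs are unknown: not given in the sources used here. A deposited score of unstated unit accompanies the start and end of each peak. From these intervals, Python 3.11.15 with numpy 2.4.6, pandas 2.3.3, scipy 1.17.1, statsmodels 0.14.6 and matplotlib 3.10.9 computed all values. Mitochondrial peaks were left out. The symbol zip-8 was taken from a RefSeq gene table by locus tag. A peak counted as supported when it overlapped a replicate peak by at least 1 bp, and as lying in the bin or section of its midpoint. Where several replicate peaks overlapped, the lowest number was taken. Shares carry 95% Wilson intervals, and differences of shares Newcombe intervals, neither adjusted for the number of comparisons. Exact binomial tests were adjusted by Benjamini-Hochberg over 6 chromosomes or 18 sections, Fisher's exact tests over 5 comparisons, all two-sided, with a threshold of 0.05. The quasi-Poisson fits covered all bins of all chromosomes. Tests were also run on simulated lists of the combined list's size with peaks placed at random along each chromosome. Such lists have no clustering and cannot check the tests for clustered peaks. The regions named were the 10 first on V by number, the first of each section (the widest were tied at 480 bp), the fullest and emptiest bins, the 3 longest gaps, the 3 densest runs, the peak without a replicate 1 partner, the first 5 without a replicate 2 partner and the first replicate peaks outside the combined list; the narrowest peak, the bin from 12 to 13 Mb, the first bin and the joined region were picked out with their values known. The members, sections and tests were chosen with earlier results of these data known. The closing section gives the main effects of the other settings tried.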

Additional observations from a re-analysis of the deposited data

How the results depend on the processing

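Without a replicate, as many first peaks of the other replicate list stood in for the combined list. The ratio of V to its span then ranged from 0.83 to 0.96 and passed only without replicate 1. The difference in the share of V peaks in the first 25% was here taken from each whole replicate list, not from combined peaks. It ranged from −2.55 to 0.722 percentage points, against −4.98 in the combined list, and again passed only without replicate 1. With the first peaks of 1 replicate again, the left arm's ratio ranged from 0.91 to 1.01. The centre ranged from 1.01 to 1.05 and the right arm from 0.98 to 1.04. Directions turned in these sections, none of which passed under any setting of the combined list. With arms as the outer 25% of the span the left arm was at 1.03 and the centre at 0.97. The right arm fell to 0.99 with peaks within 2 kb merged and to 0.998 in the quasi-Poisson fit. In the whole replicate 2 list the centre was at 0.998 with the outer 25% as arms. In replicate 1 the centre (0.94) and right arm (1.05) no longer passed in the quasi-Poisson fit. With a reciprocal overlap of 50%, the difference between V and the rest turned to 0.401 points for replicate 2 and 0.660 points for both replicates. Combined peaks narrower than 50% of a replicate 2 peak could not pass this setting, and the cause of the turn was not tested. With midpoints within 100 bp these differences were −1.56 and −3.05 points, with the better-ordered 50% of replicate 2 −4.42 and with merged peaks −2.98 for replicate 2. In the first 10% and 50% of the order V differed by −2.62 and −2.41 points, and close neighbours by −0.165 points within 2 kb and −5.67 within 10 kb. None of these passed. The ratio of V to its span was 0.93 with merged peaks and 0.89 in the better-ordered 50%, and neither passed. With overlapping peaks joined it was 0.91 in replicate 1 and 0.88 in replicate 2, and both passed. Median widths were 480 bp on V and elsewhere. In 0.5 Mb bins V held 4 to 20 peaks, the fullest bin starting at 19 Mb. In 1 Mb bins starting 0.5 Mb later, the fullest began at 18.5 Mb with 29 peaks and the emptiest at 16.5 Mb with 10. The fits to whole replicate lists were added after seeing the data. No paired analysis was possible because the input samples had no lists here, so no replicate block could be fitted. Read depth is unknown, so how far it limits these values is unknown too.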
